A study of Mus musculus with 6 samples.

Results

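The genes examined were 32 genes of cholesterol synthesis and of the sterol-regulated SREBP pathway, chosen by symbol from the 55565 genes listed in the deposited tables, and all 32 had reads in these cells and were tested. Cholesterol is built from acetyl-CoA by way of mevalonate, squalene and lanosterol, and most enzymes of this route are made under the control of SREBP transcription factors. SREBP precursors stay in the endoplasmic reticulum when sterol is plentiful, held there by SCAP and the INSIG proteins, and travel to the Golgi for cleavage when sterol is scarce. SREBP-2, encoded by Srebf2, is best known for sterol genes, and SREBP-1, encoded by Srebf1, for fatty acid genes, whereas the LXR receptors respond to oxysterols and raise genes of sterol export such as Abca1.

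Bulk RNA sequencing was compared between 3 WT libraries (Mcm8+/+) and 3 KO libraries (Mcm8-/-, with exon 7 of Mcm8 deleted by CRISPR-Cas9) of MEFs, mouse embryonic fibroblasts taken from the fetal trunk at E13.5. Heterozygous parents of mixed C57BL/6J and ICR stock were crossed to obtain the embryos, and the cells of both genotypes were immortalized with an SV40 lentivirus under puromycin selection and grown in DMEM with fetal bovine serum. The methods call the 3 libraries of each genotype biological repeats but do not say if they stem from different embryos or cultures. The p-values thus measure a spread between these libraries, whatever its source, taken from the trend over all genes and not gene by gene. The comparison asks how these genes differ in level between cells with and without MCM8, a protein of DNA replication and repair.

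Library totals lay between 12722979 and 21022755 counts. Mcm8 itself had 13.8, 16.6 and 12.8 CPM (TMM-scaled counts relative to the library total) in WT1, WT2 and WT3 and between 4.12 and 4.45 CPM in KO1, KO2 and KO3, so each library matched its label. The genotypes also differed in Xist (1196 ± 224 against 481 ± 11.4 CPM, SD, n = 3) and in the Y-linked Ddx3y (7.77 ± 0.966 against 42.6 ± 5.32 CPM), and sex composition and genotype cannot be told apart in this design. Fibroblast markers were abundant, with a summed FPKM of 1971 to 2253 over 8 genes in WT and 2172 to 2245 in KO, and 2 of the 8 were called higher and 2 lower. The epithelial list had a summed FPKM of 1.87 to 2.81 in WT and 7.07 to 7.80 in KO, with 3 of its 6 genes called higher, and its part in the results below was not tested. The adipocyte list summed to 1.14 to 1.38 FPKM in WT and 1.81 to 2.36 in KO, and no gene of it was called. Cidec and Lep were at 0, and Adipoq and Plin1 at 3 counts or fewer in each library. The hepatocyte list did not pass 0.477 FPKM in any library, with Ttr, Apoa1 and Serpina1a at 0, and the macrophage list did not pass 2.34 FPKM, with Adgre1 and Tyrobp at 0. The endothelial list reached at most 0.513 FPKM, and the 6 proliferation genes summed to 321 to 345 FPKM in WT and 338 to 343 in KO, with 1 of them called higher.

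In all, 12 sterol and lipid genes fell in KO MEFs and 1 rose. Lower in KO were Insig1, Hmgcs1, Mvd, Idi1, Sqle, Lss, Cyp51, Msmo1, Nsdhl, Sc5d, Elovl6 and Stard4, by 14.9% to 27.8% of the WT mean, and higher was Abca1, by 1.85-fold. The call was a Benjamini-Hochberg adjusted p-value below 0.05 in edgeR's quasi-likelihood test over all 26898 genes tested, a test that called 9.0% of all genes, 4.03% lower and 4.97% higher. Most of these genes are well expressed, and among the 8738 genes with a mean at least as high as the lowest of the 32 (13.6 CPM) the shares called were 9.01% lower and 8.21% higher. No gene of the 32 passed the stricter call that adds a 2-fold change, which 2.42% of all genes passed, 0.665% as lower and 1.75% as higher. The median log2 fold change of the 32 genes was -0.16, beside 0.01 for all genes tested and -0.02 for genes at a similar level. Of the 32 genes 23 had a negative and 9 a positive log2 fold change. In 13 genes every KO library lay below every WT library and in 2 every KO library lay above, where 10.1% and 11.6% of all genes tested, and 20.4% and 15.7% of genes at a similar level, were separated in these directions. In bulk RNA, fewer cells that make a transcript and less transcript per cell cannot be told apart.

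**Figure D1:**
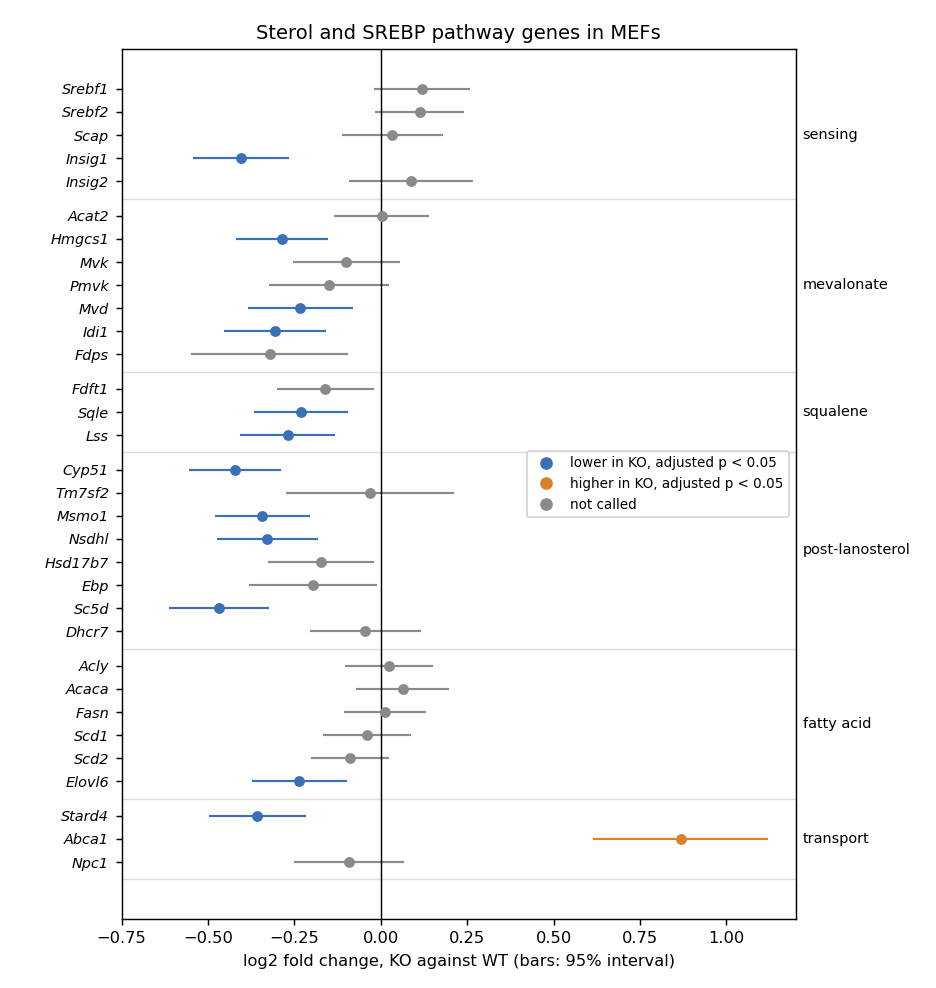
Log2 fold change of KO against WT for the 32 genes, grouped by role, with 95% intervals from the quasi-likelihood fit. The intervals take their spread from the trend over genes. Blue points are the 12 genes called lower in KO, the orange point is Abca1, called higher at 0.87, and grey points are the 19 genes not called. All calls among the squalene and post-lanosterol enzymes lie to the left of 0.

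The spread between libraries was not even. WT1 was the highest of the 6 libraries for 13 of the 18 sterol enzymes, with a mean log2 deviation from the gene means of 0.21, beside 0.06 in WT2 and 0.07 in WT3 and -0.10 to -0.12 in the KO libraries. For the 6 fatty acid genes WT1 was lowest in 4, with a mean deviation of -0.14, beside 0.09 and 0.11 in WT2 and WT3. With WT1 left out, 15 of the 32 genes were called lower and 1 higher: Mvd lost its call and Fdft1, Hsd17b7, Scd2 and Fasn gained one. Calls over all genes also rose without WT1, from 1083 to 1624 lower and from 1337 to 1650 higher. On average, WT1 stood apart from WT2 and WT3 in both groups of genes, high for sterol enzymes and low for fatty acid genes. The squalene enzymes hardly showed this, with mean deviations of 0.13, 0.11 and 0.09 in WT1, WT2 and WT3. For Hsd17b7, WT1 was the lowest WT library (81.4 CPM, beside 87.2 in WT2 and 88.0 in WT3).

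**Figure D2:**
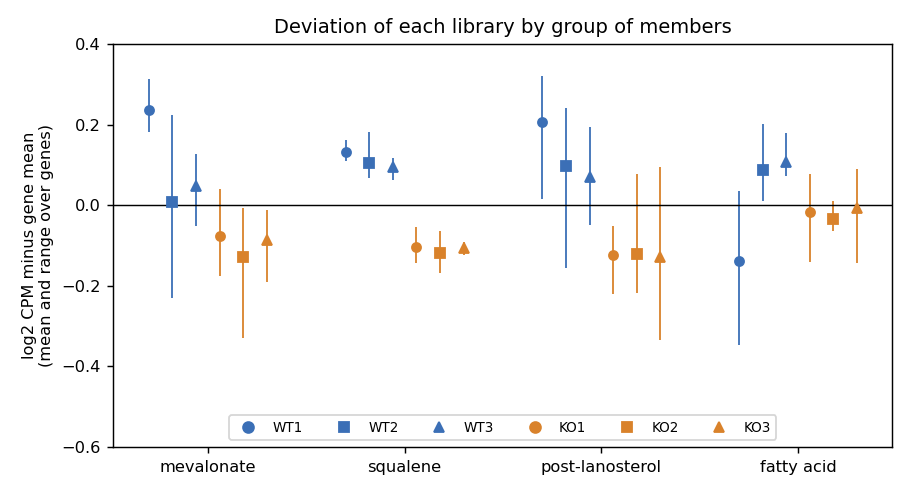
Log2 CPM of each library minus the mean over the 6 libraries, as the mean (point) and range (line) over the genes of a group, with WT in blue and KO in orange. WT1 stands above WT2 and WT3 for the mevalonate and post-lanosterol enzymes, at 0.24 and 0.21, and below them for the fatty acid genes, at -0.14.

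Promoter letters were read for the genes with a window in RefSeq (GRCm38.p6, 250 bases before to 50 bases after the annotated start), which 25 of the 32 genes had, in 33 windows. The sterol regulatory element to which SREBPs bind is classically written TCACNCCAC, and on either strand these letters stood in 1.24% of all 32851 windows and, among the 32 genes, in the window of Hmgcs1 alone. The looser form CACNNCAC, which also takes in every TCACNCCAC, stood in 16.2% of all windows and in 7 of the 33. Of the 10 genes called lower that had a window, 3 held it (Hmgcs1, Insig1 and Msmo1), and so did 4 of the 15 other genes with a window (Acat2, Hsd17b7, Dhcr7 and Insig2), beside 18.2% of all genes. Sqle and Stard4, also called lower, had no window. The sites below are shown so that those of called and uncalled genes can be read side by side, with the CACNNCAC match, or its reverse complement in Insig1, in capitals. Those of the uncalled Dhcr7 and Insig2 are not printed, and the Insig2 match (CACTGCAC) has the same letters as the Msmo1 match. The Hmgcs1 site is at chr13:119690204-119690233 (plus strand), the Msmo1 site at chr8:64733651-64733680 (minus strand) and the Insig1 site at chr5:28071387-28071416 (plus strand), and the sites of the uncalled Acat2 and Hsd17b7 are at chr17:12960888-12960917 and chr1:169969303-169969332 (both minus strand).
Hmgcs1: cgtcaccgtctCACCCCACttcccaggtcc
Msmo1: cacggaccaatCACTGCACggcgaaggcag
Insig1: cggtacgtgtaGTGTCGTGgcgtgtacctt
Acat2: tggatcctccaCACCCCACcctaacccgac
Hsd17b7: tcggcctatctCACCTCACccggtctgggc

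The match begins 136 bases before the gene start in Hmgcs1, 91 in Msmo1, 14 in Insig1, 181 in Acat2 and 116 in Hsd17b7. The capitals of Acat2, a gene that was not called, are letter for letter those of Hmgcs1, and Acat2 held a further match on the opposite strand. Insig1 held 3 overlapping matches, of which the middle one is printed. The CCAAT box, where the SREBP partner NF-Y binds, stood in 63.6% of the windows of the 32 genes and in 37.4% of all windows, in 9 of the 10 windows of genes called lower, Elovl6 being the exception, and in 12 of the 23 windows (11 of 15 genes) of genes not called lower. The E-box CACGTG, which reads the same on both strands, stood in 21.2% of the windows and in 7.15% of all windows. These matches describe letters in short windows and are not measured binding sites.

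Among the genes of sterol sensing and transcription, 1 of 5 was called, Insig1, whose protein retains the SCAP and SREBP complex. Insig1 (chromosome 5, 28276361 to 28283660 in the coordinates of the deposited tables) had 207.6, 213.8 and 211.4 CPM in the WT libraries and 156.7, 157.3 and 163.8 CPM in the KO libraries. The KO libraries lay together well below the closely grouped WT libraries, a log2 fold change of -0.41 (SE 0.07, adjusted p = 4.86e-07) that was called in each of the 6 fits leaving out 1 library. Srebf2 had 464.6, 526.5 and 562.0 CPM in WT and 552.5, 560.8 and 565.6 CPM in KO, a log2 fold change of 0.11 (SE 0.07, adjusted p = 0.379) with overlapping groups. It was not called in any fit, and its log2 fold change was 0.040 without WT1 and 0.18 without WT3. Srebf1 had 175.2, 177.1 and 187.7 CPM in WT and 201.0, 194.0 and 191.5 CPM in KO. All KO libraries lay above all WT libraries for Srebf1, but the log2 fold change of 0.12 (SE 0.07) was not called (adjusted p = 0.391), and its 95% interval ran from -0.02 to 0.26. Srebf1 overlaps Rai1 on the opposite strand, which had counts equal to 64.0% of its own, and the library kit does not mark strand. Scap and Insig2, which escorts and which retains the precursors, had log2 fold changes of 0.03 and 0.09, neither called.

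Among the 7 enzymes from acetyl-CoA to farnesyl diphosphate, 3 were called lower and none higher. Hmgcs1, the cytosolic HMG-CoA synthase (chromosome 13, 120151915 to 120169796 in the deposited tables) whose promoter site is printed above, had 392.8, 386.1 and 361.5 CPM in WT and 304.3, 329.4 and 301.2 CPM in KO. The groups were apart and the log2 fold change was -0.29 (SE 0.07, adjusted p = 0.000537). Idi1, the isopentenyl diphosphate isomerase, had 122.5, 114.8 and 108.1 CPM in WT and 96.1, 92.3 and 90.7 CPM in KO, again without overlap, with a log2 fold change of -0.31 (SE 0.08, adjusted p = 0.00111). Mvd, the mevalonate diphosphate decarboxylase, had 104.6, 78.3 and 91.8 CPM in WT and 77.5, 76.1 and 79.9 CPM in KO. WT2 lay within the KO range for Mvd, and its call (log2 fold change -0.23, SE 0.08, adjusted p = 0.0322) was lost when any library other than WT2 was left out (adjusted p up to 0.203) and under DESeq2 (0.124). The log2 fold change of Mvd was -0.13 without WT1 and -0.33 without WT2. Hmgcs1 was not called by limma on log2(FPKM + 1) (adjusted p = 0.0629) or on log2(FPKM + 0.1) (0.0621). Idi1 was not called with a pseudocount of 1 (0.0513) but was with 0.1 (0.0485).

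The other 4 enzymes of this stretch were not called. The thiolase Acat2 was at 218 ± 35.7 CPM in WT and 219 ± 4.34 in KO, a log2 fold change of 0.00 with a 95% interval from -0.14 to 0.14. That interval took its spread from the trend over genes and not from the Acat2 libraries themselves. The kinases Mvk and Pmvk had log2 fold changes of -0.10 and -0.15, with WT1 the highest library for both. Fdps, the farnesyl diphosphate synthase, had a log2 fold change of -0.32 (SE 0.12, adjusted p = 0.0594), with every KO library below every WT library. Fdps was listed at only 19.6 ± 1.05 CPM in WT and 15.6 ± 1.60 in KO. Its processed pseudogene Gm3571 held 175% of the counts of Fdps itself, so the split of reads between them is uncertain. Fdps and its copies together had 64.4, 53.0 and 54.5 CPM in WT and 50.7, 50.2 and 51.5 CPM in KO, with WT1 the farthest from KO.

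In the squalene arm, all 3 enzymes were lower in every KO library than in every WT library, and 2 were called. Sqle, the squalene epoxidase, had 283.1, 264.8 and 274.2 CPM in WT and 233.2, 231.7 and 235.1 CPM in KO, a log2 fold change of -0.23 (SE 0.07, adjusted p = 0.0121). Lss, the lanosterol synthase, had 249.2, 259.7 and 245.9 CPM in WT and 207.3, 203.7 and 215.1 CPM in KO, a log2 fold change of -0.27 (SE 0.07, adjusted p = 0.00216). Both genes showed gaps between the genotypes wider than the range within either one. The Sqle call was lost without KO1, KO2 or KO3 (adjusted p from 0.0916 to 0.115) and the Lss call without KO2 (0.0541). Fdft1, the squalene synthase, had a log2 fold change of -0.16 (SE 0.07) and was not called (adjusted p = 0.172), but was called without WT1 (-0.15, adjusted p = 0.0321). Fdft1 overlaps Ctsb on the opposite strand, which had counts equal to 258% of its own.

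The enzymes from lanosterol to cholesterol held the 2 largest falls of the 32 genes, with 4 of 8 called lower, none higher and all 8 log2 fold changes negative. Sc5d, the sterol desaturase that acts late in the route (chromosome 9, 42162891 to 42175552 in the deposited tables), had 157.1, 148.8 and 138.7 CPM in WT and 109.5, 111.9 and 99.7 CPM in KO. This was the largest fall of the 32, with KO 27.8% below WT and a log2 fold change of -0.47 (SE 0.07, adjusted p = 1.13e-08). Cyp51, the lanosterol demethylase (chromosome 5, 4131145 to 4154746), had 401.1, 353.6 and 371.0 CPM in WT and 277.8, 283.8 and 278.8 CPM in KO, a log2 fold change of -0.42 (SE 0.07, adjusted p = 2.71e-08). The KO libraries differed from each other by far less than the WT libraries did, and the gap to the lowest WT library was wider than the WT range. Cyp51 overlaps Akap9 on the opposite strand, which had counts equal to 27.2% of its own. Msmo1, the methylsterol monooxygenase whose promoter site is printed above, had 268.5, 240.4 and 224.7 CPM in WT and 197.0, 186.1 and 194.6 CPM in KO, a log2 fold change of -0.34 (SE 0.07, adjusted p = 2.96e-05). Limma did not call it on log2(FPKM + 1) (adjusted p = 0.0764) or on log2(FPKM + 0.1). Nsdhl, a dehydrogenase of sterol demethylation, had 127.3, 121.0 and 113.8 CPM in WT and 99.5, 94.7 and 93.9 CPM in KO, a log2 fold change of -0.33 (SE 0.08, adjusted p = 0.000315). Groups did not overlap in either gene, and Nsdhl lies on chromosome X. Sc5d, Cyp51, Msmo1 and Nsdhl were each called in all 6 fits that left out 1 library.

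The other 4 post-lanosterol enzymes were not called. Hsd17b7, a ketosteroid reductase, had a log2 fold change of -0.17 (adjusted p = 0.186) and was called without WT1 (-0.21, adjusted p = 0.0119). Ebp, a sterol isomerase on chromosome X, had -0.20 (adjusted p = 0.231). Dhcr7, a reductase of the final steps, and the sterol reductase Tm7sf2 had log2 fold changes of -0.04 and -0.03, with 95% intervals from -0.21 to 0.12 and from -0.27 to 0.21. Tm7sf2 was low (14.9 ± 2.28 CPM in WT) and shares its strand with the overlapping Vps51, which had counts equal to 220% of its own. Within the route, then, called and uncalled enzymes stood next to each other, and the sizes of the falls overlapped between its 3 stretches.

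**Figure D3:**
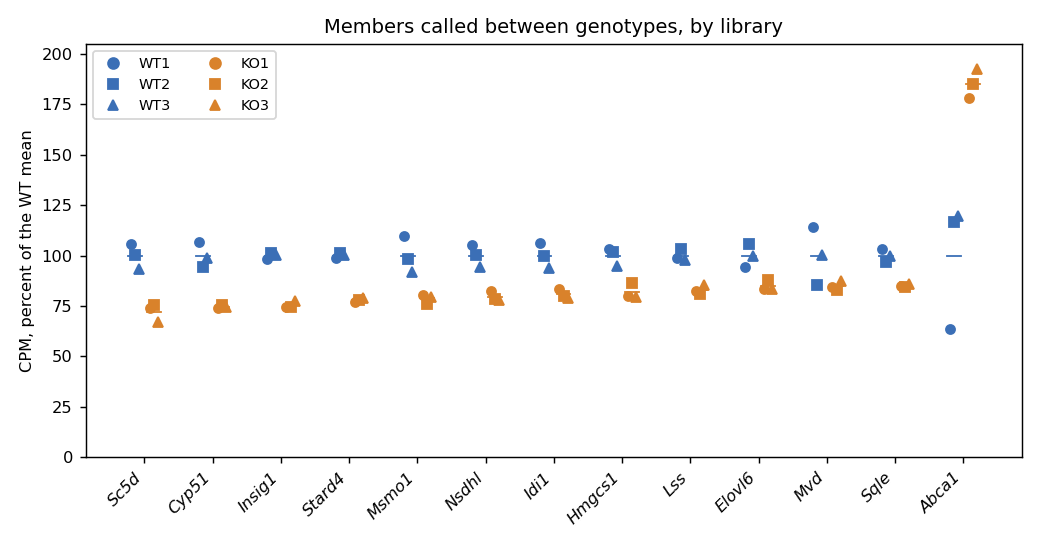
CPM of each library as a percentage of the WT mean, for the 13 called genes in the order of their log2 fold change, with WT in blue, KO in orange, marker shapes for the library number and short lines at the genotype means. Except for Mvd, where WT2 meets the KO range, and Abca1, which is higher in KO, all KO points lie below all WT points.

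Of the 6 genes of fatty acid synthesis and desaturation, 1 was called. Elovl6, an elongase of long-chain fatty acids, had 232.5, 261.2 and 246.0 CPM in WT and 205.9, 217.0 and 205.4 CPM in KO. The groups did not overlap (log2 fold change -0.24, SE 0.07, adjusted p = 0.0112), but the call was lost without KO1, KO3 or WT2 (adjusted p from 0.0798 to 0.144). It was also lost under limma on log2(FPKM + 1) (0.0883) and on log2(FPKM + 0.1). Fasn, the fatty acid synthase, had 985, 1364 and 1420 CPM in WT and 1265, 1221 and 1316 CPM in KO. WT1 was the lowest of the 6 libraries and the other WT libraries the highest. The log2 fold change of 0.01 (95% interval -0.11 to 0.13) became -0.14 without WT1 (adjusted p = 0.000648), outside that interval. The interval took its spread from the trend over genes and not from the Fasn libraries themselves. Scd1, a stearoyl-CoA desaturase, had 512, 541 and 568 CPM in WT and 534, 522 and 520 CPM in KO, a log2 fold change of -0.04 (SE 0.07) with overlapping groups. Scd2, its paralog and per length the most abundant of the 32 genes at a mean of 494 FPKM, had a log2 fold change of -0.09 (SE 0.06, adjusted p = 0.459), and without WT1 of -0.14 (adjusted p = 3.85e-05). Acly and Acaca, which make cytosolic acetyl-CoA and malonyl-CoA, had log2 fold changes of 0.02 and 0.06, neither called, and the counts of the Acaca pseudogene Gm5182 equalled 13.7% of those of Acaca.

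The 3 genes of sterol transport went different ways. Stard4, a cytosolic sterol carrier, had 167.3, 171.1 and 169.5 CPM in WT and 130.7, 131.9 and 133.9 CPM in KO, among the tightest groups of the 32. Its log2 fold change was -0.36 (SE 0.07, adjusted p = 2.55e-05), and it was called in each of the 6 fits that left out 1 library. Abca1, the exporter that loads cholesterol onto apolipoproteins (chromosome 4, 53030787 to 53159895 in the deposited tables), had 6.04, 11.1 and 11.4 CPM in WT and 16.9, 17.6 and 18.3 CPM in KO. Every KO library exceeded every WT library, and WT1 was well below WT2 and WT3. The log2 fold change was 0.87 (SE 0.13, adjusted p = 1.28e-09), from 0.64 without WT1 to 1.03 without WT3. Limma did not call Abca1 on log2(FPKM + 1) (0.50, adjusted p = 0.151) or on log2(FPKM + 0.1). Abca1 was per length the lowest of the 32 genes, at 0.914 FPKM in WT and 1.69 FPKM in KO. Npc1, which releases cholesterol from lysosomes, had 58.3, 65.2 and 73.1 CPM in WT and 61.3, 59.1 and 64.5 CPM in KO, with overlap and a log2 fold change of -0.09 (SE 0.08, adjusted p = 0.614) that was -0.17 without WT1 and -0.0039 without WT3. Npc1 overlaps Rmc1 on the opposite strand, which had counts equal to 43.8% of its own.

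Per length, the summed level of the 18 sterol enzymes was 671 ± 46.3 FPKM in WT and 569 ± 3.27 FPKM in KO, 15.2% lower, and no KO library (566 to 572) reached the lowest WT library (643). The sum was lower in KO in each stretch of the route, at 88.9% of the WT mean for the mevalonate enzymes, 86.3% for the squalene enzymes and 78.9% for the post-lanosterol enzymes, each without overlap between genotypes. The mevalonate sum was 345 FPKM in WT1, 286 in WT2 and 297 in WT3, against 273 to 277 in KO, and its log2 ratio of -0.17 became -0.08 without WT1. The fatty acid genes were at 96.0% of WT and the sensing genes at 96.4%, both with overlapping libraries. For the fatty acid genes the overlap came from WT1 (822 FPKM), since WT2 (937) and WT3 (935) lay above all KO libraries (851 to 869), and the log2 ratio of -0.06 became -0.12 without WT1. That of the sensing genes went from -0.05 to -0.08 without WT1. Summed as CPM, the sensing genes were at 101% of WT, so their direction turned with the unit, and 4 of the 5 had positive log2 fold changes. These sums are descriptions and carry no test.

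**Figure D4:**
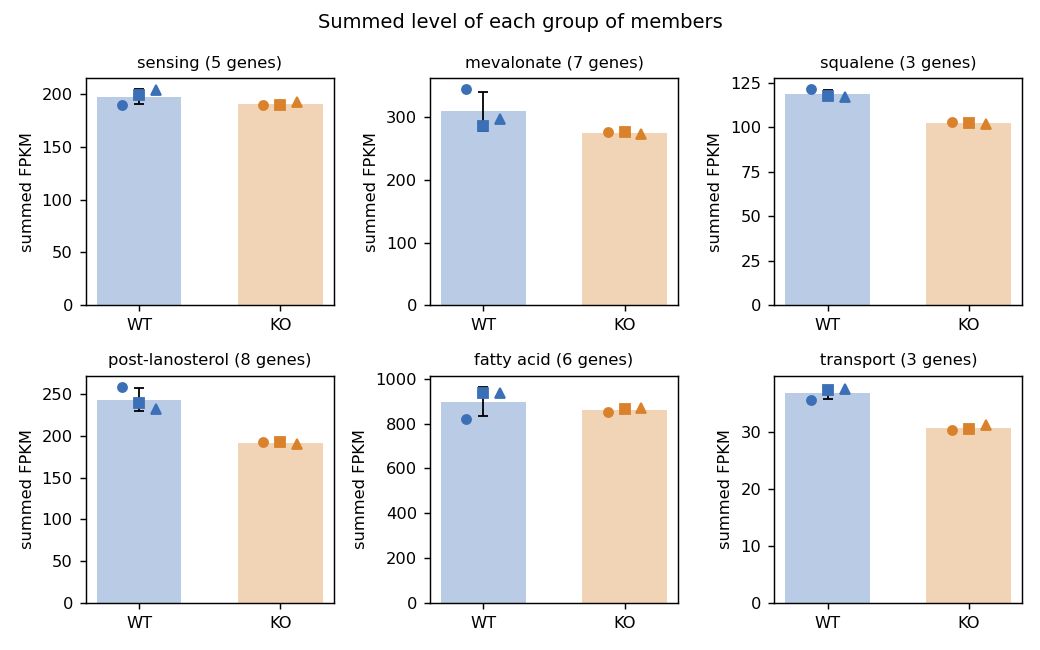
Summed FPKM of the genes of each group in every library (points), with the genotype mean (bar) and SD over 3 libraries (line). The post-lanosterol sum was 243 ± 13.7 in WT and 192 ± 1.16 in KO, whereas the fatty acid sum was 898 ± 65.9 in WT and 862 ± 9.34 in KO and overlapped through WT1 alone, with WT2 and WT3 above all KO libraries.

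Beyond the 32 genes, 56 other genes of SREBP regulation, sterol and isoprenoid synthesis, sterol transport, LXR signalling and fatty acid synthesis were listed, of which 55 were tested, 8 were called lower and 4 higher, beside 4.03% and 4.97% of all genes. Of 11 genes listed under SREBP processing and sterol enzyme turnover, 2 were called lower (Mbtps2 and Mylip) and 1 higher, although Mylip acts on lipoprotein receptors. Mylip is also listed with the LXR targets and Acss2 in both lists of synthesis genes, and each is counted once in the 8. Mbtps2, the site-2 protease that cleaves SREBPs, was lower (60.9 ± 2.71 against 48.9 ± 1.77 CPM, log2 fold change -0.32, SE 0.08, adjusted p = 0.00331) and lies on chromosome X. Rnf145, a ubiquitin ligase of the sterol-sensing machinery, was higher (87.2 ± 1.46 against 104 ± 4.86 CPM, log2 fold change 0.26, SE 0.08, adjusted p = 0.0125). In both genes the groups were apart, and in both the call was lost without KO1 or KO3 (adjusted p from 0.0549 to 0.151).

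Of the 7 LXR receptors and targets listed, Arl4c was called higher and Abcg1 and Mylip lower. Arl4c, a small GTPase, had 39.6 ± 2.68 CPM in WT and 61.5 ± 4.46 in KO (log2 fold change 0.63, SE 0.09, adjusted p = 1.51e-11). Abcg1, a second sterol exporter, had 6.45 ± 0.917 CPM in WT and 3.64 ± 1.36 in KO (log2 fold change -0.83, SE 0.20, adjusted p = 0.000897), and its call was lost without KO2 (adjusted p = 0.0512). Mylip, a ubiquitin ligase that lowers lipoprotein receptors, had 34.4 ± 1.54 CPM in WT and 23.5 ± 1.71 in KO (log2 fold change -0.55, SE 0.10, adjusted p = 1.29e-06). Taking Abca1 together with the targets of this list, Abca1 and Arl4c were thus called higher in KO and Abcg1 and Mylip lower. To complete the list, the targets Smpdl3a and Lpcat3 were not called, at log2 fold changes of 0.88 (adjusted p = 0.237, every KO library above every WT library) and -0.09 (adjusted p = 0.614). The receptors Nr1h2 and Nr1h3 were not called, at log2 fold changes of 0.10 and -0.64, and Nr1h3 was low at 1.71 ± 0.399 CPM in WT.

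Of 15 genes of sterol uptake, storage and transport, 2 were called lower and 2 higher. The acid lipase Lipa was lower by a log2 fold change of -0.28 (SE 0.08, adjusted p = 0.0095), a call lost without KO3 (0.445) or WT2 (0.0568), under DESeq2 (0.051) and under limma-voom (0.0679). Soat1, which esterifies cholesterol, was lower by -0.22 (SE 0.07, adjusted p = 0.0295), a call lost without KO1, KO2, KO3 or WT2 (adjusted p from 0.0637 to 0.223). Both are calls that depend on the libraries included. The receptor Lrp1 was called higher (0.26, SE 0.06, adjusted p = 0.000203), but WT1, at 1292 CPM, lay far below WT2 (2000) and WT3 (2163) and the groups overlapped, and the call was lost without WT1 (adjusted p = 0.131) and under DESeq2 (0.531). Gramd1b, a sterol carrier at membrane contacts, was called higher (0.45, SE 0.15, adjusted p = 0.0301) but not under DESeq2 (0.142), nor without KO1, KO2, WT1 or WT3 (adjusted p from 0.0938 to 0.216).

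In the lists of other sterol, isoprenoid and fatty acid genes, Acss2, Me1 and Acsl3 were called lower and none higher. The acyl-CoA synthetase Acsl3 had 101.1, 97.6 and 93.8 CPM in WT and 77.7, 77.2 and 78.2 CPM in KO (log2 fold change -0.33, SE 0.08, adjusted p = 0.000562). Acss2, which makes acetyl-CoA from acetate, had a log2 fold change of -0.40 (SE 0.12, adjusted p = 0.0156) and was not called by DESeq2 (0.0503) or without KO1 or KO2 (0.132 and 0.072). Me1, the malic enzyme, had -0.21 (SE 0.07, adjusted p = 0.0402), a call lost without KO1, KO2, KO3 or WT2 (adjusted p from 0.106 to 0.315). Of the 12 calls beyond the 32 genes, those of Mylip, Arl4c and Acsl3 stood in all 6 fits that left out 1 library.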

How the data were processed

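The submitters' processing notes name CASAVA 1.8, fastp, HISAT2 2.0.5, featureCounts 1.5.0-p3 and DESeq2 1.20.0 and list GRCm38, whereas the study's methods name the Ensembl 106 mouse genome, and the gene coordinates in the deposited tables differ from GRCm38 and were printed as deposited. The authors deposited raw counts per gene and FPKM values of the same libraries. Counts were fitted with edgeR 4.0.16 (TMM, quasi-likelihood, limma 3.58.1, R 4.3.3, Python 3.11.15) on every gene whose FPKM exceeded 0 somewhere, without covariates, and adjusted over the 26898 genes tested. The prior degrees of freedom were infinite, so each gene took its spread from the trend. For genes that vary more, p-values are too small and SEs and intervals too narrow. Deviations between libraries used log2(CPM + 0.5). FPKM tests used log2 values with a pseudocount of 1 or 0.1, which understates changes of low genes. The fit was tested on simulated counts with the same spread for every gene. It recovered 82 of 100 genes changed by a log2 fold change of 0.5 and 100 of 100 changed by 1. Smaller changes were not simulated, so the falls of the 32 genes, the largest at -0.47, lie below the sizes tested. The 32 genes and the other lists were chosen with earlier results of these data known. Values in each library were given for genes fixed by name and for every called gene among the 32, and called genes of the other lists were named. Promoter motifs were chosen for their textbook role and searched on both strands. The 4 further pathway genes left out are not reported here. Alternatives covered the test, scaling, filter, replicate block and each library left out.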

Additional observations from a re-analysis of the deposited data

How the results depend on the processing

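Each gene was refitted under 16 alternatives. RLE scaling, a robust prior and the replicate block left all 32 genes on the same side of the threshold, and DESeq2, limma-voom, filterByExpr and no filter changed the call of Mvd only. Of the 13 calls, 9 stood in all 6 fits that left out 1 library. Limma on log2(FPKM + 1) called 7 of the 32 genes lower and 0 higher, and with a pseudocount of 0.1 it also called 0 higher. A test against a 2-fold change called 0 lower and 0 higher. With 1 library left out, 0 to 1 of the 32 passed the 2-fold call (Abca1, without WT3). Over all genes, limma with pseudocounts of 0.1 and 1 called 527 and 532 higher and 389 and 380 lower, with 251 and 99 higher and 88 and 39 lower at 2-fold, the test against 2-fold called 157 higher and 43 lower, and leaving out 1 library gave 650 (without KO3), 680 (without KO1) and up to 1624 lower (without WT1). Of the other pathway genes, 2 were called higher by DESeq2, filterByExpr, limma-voom and limma with a pseudocount of 1, 1 with a pseudocount of 0.1 and 0 against 2-fold, and 2, 3 and 0 were called lower with pseudocounts of 0.1 and 1 and against 2-fold. Leaving out 1 library gave 2 to 4 higher and 4 to 11 lower. Summed as CPM, the log2 ratio of the sensing genes was 0.014 in place of -0.05 and that of the transport genes -0.21 in place of -0.27. Uncalled genes whose sign turned when 1 library was left out were Scap (-0.0056 to 0.061), Acat2 (-0.10 to 0.13), Tm7sf2 (-0.11 to 0.089), Acly (-0.028 to 0.068), Acaca (-0.047 to 0.13) and Fasn (-0.14 to 0.11), and the causes were not tested.

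Same-numbered libraries did not deviate together (r from -0.02 to 0.04 over 14332 genes), so the numbers were not taken as pairs. With the replicate number as a block, 12 of the 32 genes were called lower and 1 higher, 4 and 9 of the other pathway genes were called higher and lower, 1330 and 1035 of all genes were called higher and lower, and 445 and 158 at 2-fold, the median of the 32 genes was -0.16 and the log2 fold change of Mcm8 was -1.75. A p-value that missed the threshold in the 19 uncalled genes does not show that their levels were alike.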
